A study of Mus musculus with 32 samples.

Results

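The vitamin D receptor gene Vdr and the hydroxylase genes Cyp2r1, Cyp27a1, Cyp27b1 and Cyp24a1 were followed in the dorsal epidermis of mice exposed to a single dose of ultraviolet (UV) light. These 5 genes were matched by symbol among 55401 genes with counts, and 4 of them were among the 15546 genes that reached 1 cpm (the share of a mouse's reads on genes, scaled to 1000000) in at least 1 mouse and were tested. RNA was sequenced from 32 mice, in 8 groups of 4 given by genotype, exposure and sex, with 8 mice for each genotype and exposure. All mice were SKH-1/SV129/BL6/J hairless mice aged 10 to 14 weeks, so the controls carry the hairless (Hr) background as well. UV mice received 120 mJ/cm2 on the back, a dose below the one that reddens skin and mostly UVB, and were killed 24 h later, while control mice were sham handled. WT mice are compared with littermates labelled PPARD-/- (KO), deficient for PPARβ, a lipid-sensing nuclear receptor. How the allele was made is not given in the sources used here, and no Cre driver is named. The comparisons ask whether UV changed these transcripts in WT and in KO epidermis, and whether the response differed between genotypes or sexes.

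Skin makes vitamin D when UVB opens the ring of a cholesterol precursor. Vitamin D is then hydroxylated to calcidiol by CYP2R1, a microsomal enzyme, and by CYP27A1, a mitochondrial enzyme that also oxidises cholesterol, and calcidiol is activated to the hormone calcitriol by the mitochondrial enzyme CYP27B1. Calcitriol binds VDR, which works as a heterodimer with a retinoid X receptor (RXR), the same partner that PPARβ uses. CYP24A1 inactivates both compounds and is a classical target of VDR. In skin, VDR is known for its part in the hair cycle and in keratinocyte differentiation, and Hr, the gene mutated in hairless mice, encodes a corepressor of VDR.

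Promoter windows were read for 4 of the 5 genes, all but Cyp24a1. The 250 bases before the start site are shown for Vdr, whose transcript fell after UV, and for Cyp27b1, whose transcript rose, because these genes encode the receptor and the enzyme that makes its ligand. Both are printed 5′ to 3′ on the strand of the gene, from RefSeq on GRCm38.p6, in lower case. Capitals mark, on either strand, the GC box motif GGGCGG, the CCAAT box (printed as ATTGG where it is on the other strand) and the TATA-like motifs TATAAA (the canonical form) or TATATA, which reads the same on both strands. The Vdr window is chr15:97908297-97908546 on the minus strand, inside the Vdr gene as GENCODE draws it, since other transcripts start farther upstream. The Cyp27b1 window is chr10:127047996-127048245 on the plus strand.
Vdr: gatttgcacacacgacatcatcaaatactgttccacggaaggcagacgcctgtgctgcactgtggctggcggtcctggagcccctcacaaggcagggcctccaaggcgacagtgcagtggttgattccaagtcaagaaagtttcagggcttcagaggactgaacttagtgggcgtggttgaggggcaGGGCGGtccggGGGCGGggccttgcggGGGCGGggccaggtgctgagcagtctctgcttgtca
Cyp27b1: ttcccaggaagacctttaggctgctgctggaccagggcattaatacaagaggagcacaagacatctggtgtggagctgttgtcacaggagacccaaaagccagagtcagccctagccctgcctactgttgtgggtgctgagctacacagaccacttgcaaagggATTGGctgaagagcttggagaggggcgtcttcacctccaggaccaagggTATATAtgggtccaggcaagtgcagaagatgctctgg
The windows differed in composition, with a GC content of 61.2% for Vdr and 54.4% for Cyp27b1, against a median of 52.4% over 32851 promoters. GGGCGG was found 3 times in the Vdr window and not in that of Cyp27b1, and 32.7% of promoters hold it. The Cyp27b1 window held 1 TATATA, a motif in 5.25% of promoters, and 1 CCAAT, a motif in 33.8%. The windows of Cyp2r1 (GC content 61.6%) and Cyp27a1 (54%) each held CCAAT 2 times, and that of Cyp27a1 held GGGCGG 1 time. TATAAA, which 12.4% of promoters hold, was in none of the 4 windows. VDR and RXR are known to bind a direct repeat of half-sites with 3 bases between them. Such a pair in the same direction, searched on both strands with each half-site being AGGTCA (the consensus), AGTTCA (the second variant), GGGTCA (the third) or else GGTTCA (the last), was in none of the 4 windows and in 0.0396% of promoters, and this says only that these letters are absent from these windows.

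Between 22919428 and 40653581 reads per mouse fell on genes (median 27600228), so a floor of 3 reads corresponds to 0.0738 to 0.131 cpm. The tissue carried its defining markers: 5 basal keratinocyte genes (Krt5, Krt14, Col17a1, Itgb4, Itga6) summed to between 5197 and 29498 cpm and 5 suprabasal genes (Krt1, Krt10, Lor, Flg2, Dsg1a) to between 4972 and 100677 cpm. Those 5 suprabasal genes were lower after UV in both genotypes (5 of 5 called in each), where 36.5% of all genes were lower in WT and 33.5% in KO mice. Their sum went from 57253 to 100677 cpm in KO control mice to 4972 to 24935 cpm in KO UV mice. The library of 1 female, KO UV mouse 54F, stood apart. Its 6 dermal fibroblast markers summed to 1982 cpm, against 1.73 to 92.2 cpm in the other 31 mice, and its 6 macrophage and monocyte markers to 1153 cpm, against 36.4 to 307 cpm. It did not stand apart in 5 skeletal muscle markers (Acta1, Ckm, Myh4, Tnnt3, Mylpf), which summed to 1800 cpm. In the other 31 mice these muscle markers summed to 3.71 to 2567 cpm (median 77.6). RNA from outside the epidermis was therefore not confined to 54F, and its part in the levels below was not tested. Results that mouse 54F moved are given with and without it. Ppard, the targeted gene, had a median of 94.0 cpm in WT control, 279 in WT UV, 77.5 in KO control and 219 in KO UV mice. Reads over the whole gene do not show whether an exon is missing, so these counts do not check the genotype labels.

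UV lowered Vdr in both genotypes. In WT mice the lowest, median and highest Vdr levels were 178, 210 and 240 cpm in controls and 125, 143 and 163 cpm after UV. In KO mice they were 180, 214 and 236 cpm in controls and 105, 116 and 147 cpm after UV. Every UV mouse was below every control mouse of its genotype. The log2 fold change was -0.55 (SE 0.07, 95% interval -0.69 to -0.40, adjusted p = 9.56e-08) in WT mice, 1.46-fold lower, and -0.78 (SE 0.07, 95% interval -0.93 to -0.63, adjusted p = 1.56e-10) in KO mice, 1.72-fold lower. Here and below, adjusted p-values are from edgeR's quasi-likelihood test over all genes tested. All 4 tested members passed it in each genotype, 3 lower and 1 higher, against 71% of all genes in WT mice (34.5% higher, 36.5% lower) and 70.8% in KO mice (37.3% higher, 33.5% lower). With such a background, passing the test does not set these genes apart from the rest. Groups that do not overlap were also common: 43.4% of genes in WT and 35.1% in KO mice had no overlap between control and UV mice, beside 3 of the 4 members in WT and 2 in KO mice. RNA of fewer cells of a type and less RNA per cell cannot be told apart in such bulk samples, and the part of the lower suprabasal markers in these changes was not tested.

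Both genes whose enzymes form calcidiol fell. Cyp2r1 was a low transcript, with 26 to 117 reads per mouse. Its lowest, median and highest levels were 1.67, 2.5 and 3.52 cpm in WT control mice and 1.05, 1.53 and 1.69 cpm in WT UV mice. In KO mice they were 1.27, 3.01 and 3.47 cpm in controls and 1.01, 1.41 and 2.03 cpm after UV. In WT mice the ranges met at 1 control mouse, 63F, at 1.67 cpm, and in KO mice at 1 control mouse, 60F, at 1.27 cpm. The log2 fold change was -0.80 (SE 0.19, adjusted p = 0.000435) in WT mice, 1.74-fold lower, and -0.90 (SE 0.19, adjusted p = 0.000122) in KO mice, 1.86-fold lower. Mouse 54F held the highest KO UV value, and without it the log2 fold change in KO mice was -1.03 (adjusted p = 1.02e-05).

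Cyp27a1 also fell in both genotypes. Its lowest, median and highest levels were 5.56, 6.92 and 9.83 cpm in WT controls and 1.08, 1.81 and 2.93 cpm after UV, with no overlap. The log2 fold change was -1.96 (SE 0.31, 95% interval -2.60 to -1.32, adjusted p = 2.93e-06), 3.89-fold lower. The sum of 6 dermal fibroblast markers (Col1a1, Col1a2, Col3a1, Dcn, Lum, Pdgfra), none of them at 0 in all mice, was also lower in WT mice after UV. It went from 12.6 to 71.9 cpm in controls to 1.73 to 8.44 cpm after UV. Of these markers 3 of 6 were called lower, where 36.5% of all genes were lower. In KO controls the levels were 3.51, 5.39 and 10.8 cpm, and after UV 1.14, 2.05 and 12.9 cpm. The value of 12.9 cpm is mouse 54F, the highest of all 32 mice, and the other 7 KO UV mice lay between 1.14 and 2.39 cpm, below every KO control. The log2 fold change in KO mice was -1.03 (SE 0.31, adjusted p = 0.00397), 2.04-fold lower, and -1.61 (SE 0.20, adjusted p = 5.35e-08) without 54F. The fibroblast sums of KO mice were 2.23 to 92.2 cpm in controls and 6.0 to 1982 cpm after UV, or 6.0 to 30.0 cpm without 54F. In KO mice 0 of 6 markers were called, where 37.3% of all genes were higher and 33.5% lower. The part of these markers in the lower Cyp27a1 level was not tested.

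The dermal fibroblast markers moved with Cyp27a1 in that library. All 6 were higher in 54F than in any other mouse: Col3a1 was at 1007 cpm against at most 40.6, Dcn at 335 against at most 15.0, Col1a2 at 339 against at most 27.6, Col1a1 at 185 against at most 17.6, Lum at 71.1 against at most 3.78 and Pdgfra at 45.1 against at most 2.86. The mouse with the next highest fibroblast sum, KO control 44F at 92.2 cpm, also had the next highest Cyp27a1 level, 10.8 cpm. The third, KO control 60F at 84.3 cpm, had a Cyp27a1 level of 5.23 cpm, inside the range of the other KO controls. KO controls 69F and 62F had low fibroblast sums, 2.23 and 5.5 cpm, and Cyp27a1 levels of 5.39 and 7.26 cpm. The part of dermal RNA in the Cyp27a1 level of 54F was not tested. Vdr in 54F, at 114 cpm, was beside the other KO UV females, at 105, 106 and 113 cpm.

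**Figure D1:**
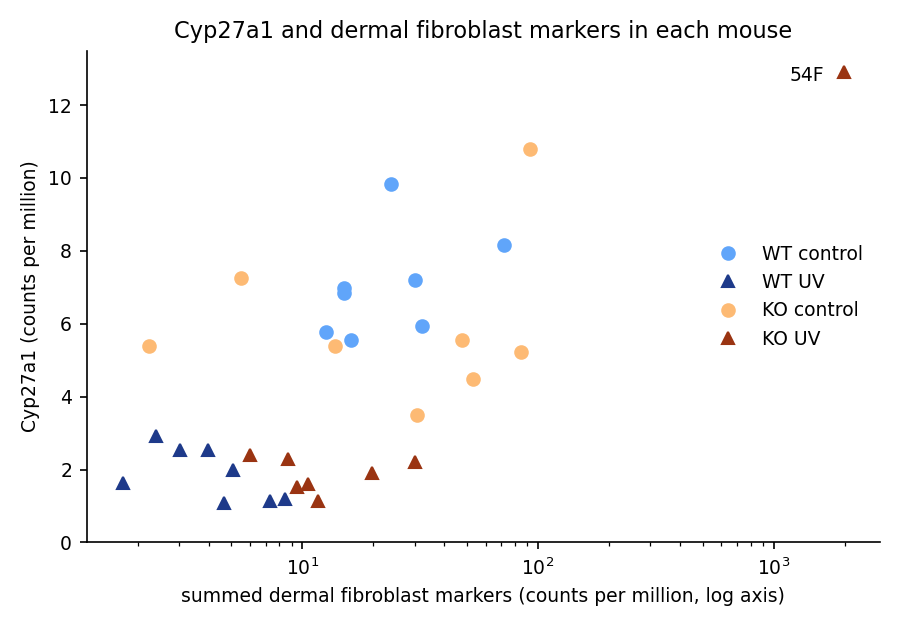
Cyp27a1 level in cpm (vertical axis) against the sum of 6 dermal fibroblast markers in cpm (horizontal log axis), with 1 point per mouse and symbols for genotype and exposure. Mouse 54F lies at 12.9 and 1982 cpm, apart from the other 7 KO UV mice, which lie between 1.14 and 2.39 cpm of Cyp27a1.

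Cyp27b1, the activating hydroxylase, rose after UV in both genotypes. Its lowest, median and highest levels were 0.555, 0.754 and 1.14 cpm in WT controls and 1.71, 2.37 and 3.72 cpm in WT UV mice. In KO mice they were 0.531, 0.788 and 1.35 cpm in controls and 1.44, 2.39 and 3.77 cpm after UV. Every UV mouse was above every control of its genotype, although the reads behind the control values were few, 13 to 36 per mouse. The log2 fold change was 1.69 (SE 0.22, 95% interval 1.25 to 2.13, adjusted p = 7.31e-08) in WT mice, 3.23-fold higher, and 1.61 (SE 0.21, 95% interval 1.17 to 2.05, adjusted p = 1.65e-07) in KO mice, 3.06-fold higher. Of the members tested it alone rose. Markers of several cell types moved beside it. Of all genes, 34.5% were higher and 36.5% lower in WT mice, and 37.3% and 33.5% in KO mice. The 5 basal keratinocyte markers summed to 6962 to 16033 cpm in WT controls and 17023 to 29498 cpm after UV. Of these markers 3 were called higher and 1 lower. In KO mice the sums were 5197 to 11720 cpm in controls and 16585 to 28934 cpm after UV, with 4 of 5 higher. The sum of 6 macrophage and monocyte markers was 45.5 to 104 cpm in WT controls and 109 to 194 cpm after UV (3 of 6 called higher, 1 lower), and 36.4 to 112 cpm in KO controls and 112 to 1153 cpm after UV, or 112 to 307 cpm without 54F (4 of 6 higher). The sum of 5 T cell markers went from 105 to 198 cpm to 17.2 to 51.1 cpm in WT mice and from 92.8 to 168 cpm to 28.4 to 75.6 cpm in KO mice, with 5 of 5 lower in each. Of 5 Langerhans cell markers, 4 were lower and 1 higher in WT mice, and 3 lower and 1 higher in KO mice. Of 4 neutrophil markers tested, 2 were higher in WT mice, and 3 higher and 1 lower in KO mice. Of 4 endothelial markers tested, 3 were higher in each genotype. Of 5 sebaceous gland markers, 1 was higher and 1 lower in WT mice, and 4 higher in KO mice. No marker of these lists was at 0 in all mice, and their part in the Cyp27b1 level was not tested. Cyp27b1 did not pass the filter through UV mice alone, since control mice of both genotypes also reached 1 cpm.

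Cyp24a1, the inactivating hydroxylase, was at or near the floor. In WT controls 4 of 8 mice had any read, 29 reads in all, of which 19 were in mouse 63F (0.753 cpm) and the others 5, 3 and 2. In KO controls 6 of 8 mice had reads, 24 in all, with at most 12 in mouse 62F (0.384 cpm). After UV, 1 read was counted in 1 of 8 WT mice and 0 reads in the 8 KO mice, which allows up to 3 reads per library. Above 3 reads were 2 WT control and 2 KO control mice and no UV mouse. The gene never reached 1 cpm and was not tested. Without the filter on low counts, edgeR gave a log2 fold change of -4.06 (adjusted p = 0.0116) in WT and -4.48 (adjusted p = 0.00946) in KO mice, values that depend on the prior count and are no measure of size. No fold is given, since UV mice were under the floor and most controls at or under it. Cyp24a1 (chromosome 2, 170482708 to 170497145, minus strand, GRCm38) shares 718 bases with Pfdn4, a chaperone subunit gene on the other strand, whose mean was 13.5 cpm and which rose after UV in WT mice (log2 fold change 1.04, adjusted p = 4.40e-12). The strand setting of the read counting is not given in the sources used here.

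**Figure D2:**
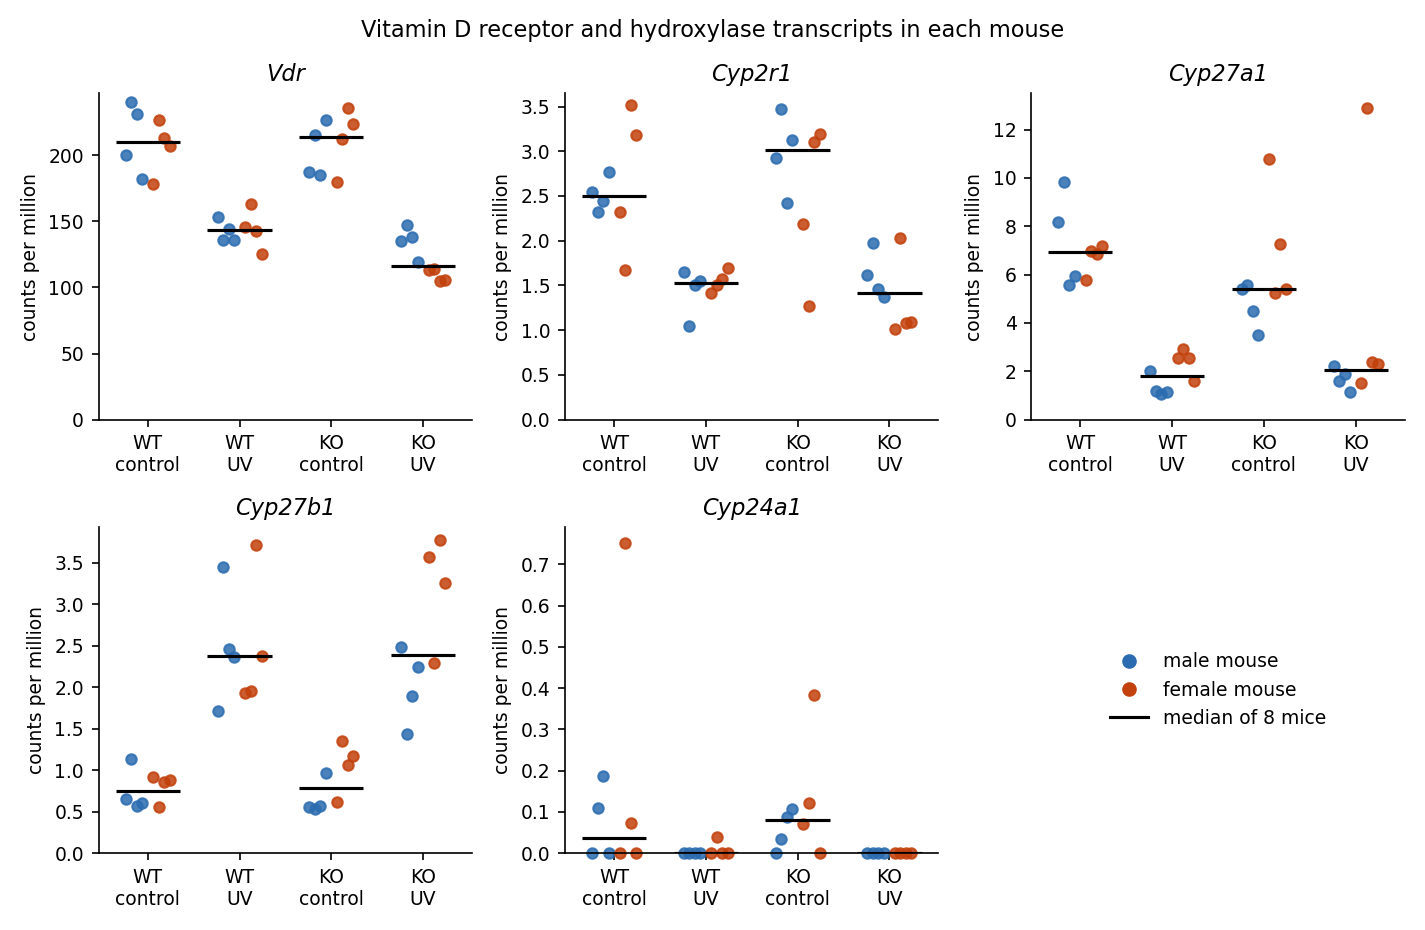
Levels of the 5 genes in cpm (vertical axes, each from 0) in WT and KO mice, control and UV, with 1 point per mouse coloured by sex and a bar at the median of 8 mice. Vdr and Cyp27b1 show no overlap between control and UV mice in either genotype, Cyp27a1 none in WT mice, and Cyp24a1 lies at 0 in all UV mice but 1.

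The other 4 genes stand clear of other annotated exons. Vdr lies on chromosome 15 (97854425 to 97910630, minus strand), Cyp2r1 on 7 (114549682 to 114562972, minus strand), Cyp27a1 on 1 (74713574 to 74737892, plus strand) and Cyp27b1 on 10 (127048250 to 127053006, plus strand), all GRCm38. Within 5 kb, the nearest genes of Cyp27b1 were Mettl1 on the same strand, 1885 bases away, which rose in WT mice (log2 fold change 0.61, adjusted p = 2.92e-07), and March9 on the other strand, 2005 bases away, which fell (-1.20, adjusted p = 1.22e-13). Prkag3, 1030 bases from Cyp27a1 on the other strand, had a log2 fold change of 0.00 in WT mice at a mean of 0.621 cpm. None was annotated within 5 kb of Vdr or Cyp2r1.

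Divided by exon length, the receptor was far above its enzymes. Median levels in WT controls were 37.2 cpm per kb for Vdr, 3.18 for Cyp27a1, 1.18 for Cyp2r1, 0.293 for Cyp27b1 and 0.0104 for Cyp24a1, and neighbours in this order did not overlap between mice. In KO controls the order was the same, but Cyp27a1 (1.61 to 4.98 cpm per kb) and Cyp2r1 (0.598 to 1.64) overlapped. After UV the 3 enzymes in the middle came together. In WT UV mice medians were 25.4 cpm per kb for Vdr, 0.922 for Cyp27b1 (range 0.664 to 1.45), 0.832 for Cyp27a1 (0.496 to 1.35) and 0.721 for Cyp2r1 (0.499 to 0.8), and the 3 enzyme ranges overlapped. In KO UV mice they were 20.6 for Vdr, 0.928 for Cyp27b1 (0.560 to 1.46), 0.941 for Cyp27a1 (0.527 to 5.95, the highest being 54F, and a median of 0.873 with a highest of 1.1 without it) and 0.669 for Cyp2r1 (0.478 to 0.959), and these 3 also overlapped. These are differences in level between genes within a state and were not tested.

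No member passed the test for a different UV response in KO and WT mice, a comparison in which 0.765% of all genes passed (119 genes by edgeR, 56 to 346 with each mouse left out and 792 by DESeq2). The difference of the log2 fold changes, KO minus WT, was -0.23 for Vdr (95% interval -0.44 to -0.03, adjusted p = 0.202), -0.10 for Cyp2r1 (-0.64 to 0.44, adjusted p = 0.881) and -0.08 for Cyp27b1 (-0.69 to 0.53, adjusted p = 0.923). For Cyp27a1 it was 0.94 (0.05 to 1.82, adjusted p = 0.228), and 0.31 without 54F (adjusted p = 0.559). By edgeR 2 of the 4 members, Vdr and Cyp27a1, were at an unadjusted p under 0.05, and DESeq2 and limma-trend called 0. Of all 15546 genes tested, 3042 were at an unadjusted p under 0.05 in this comparison. The intervals of Cyp2r1 and Cyp27b1 leave room for a weaker or a stronger response in KO mice, so they do not show that the genotypes responded alike.

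Genotypes were also compared within each exposure. Among controls 0.206% of genes passed and no member did, nor was any member at an unadjusted p under 0.05 or called by DESeq2 or limma-trend. The log2 difference, KO minus WT, was -0.01 for Vdr (95% interval -0.15 to 0.14), 0.06 for Cyp2r1 (-0.32 to 0.44), -0.27 for Cyp27a1 (-0.88 to 0.34) and 0.11 for Cyp27b1 (-0.34 to 0.55). After UV 3.31% of genes passed, a share that depended on single mice: 514 genes became 209 without 54F and 133 to 983 with each mouse left out, and DESeq2 called 1116. Vdr missed the threshold in that comparison, at -0.24 (-0.38 to -0.09, adjusted p = 0.0568), with KO UV mice between 105 and 147 cpm and WT UV mice between 125 and 163 cpm. It passed with RLE scaling (-0.26, adjusted p = 0.0421), with DESeq2 (-0.26, adjusted p = 0.0131) and with filterByExpr (-0.28, adjusted p = 0.0305). Cyp27a1 was at 0.67 (0.03 to 1.30, adjusted p = 0.224), and at 0.05 without 54F (adjusted p = 0.929). Cyp2r1 was at -0.04 (-0.43 to 0.34) and Cyp27b1 at 0.03 (-0.39 to 0.45).

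**Figure D3:**
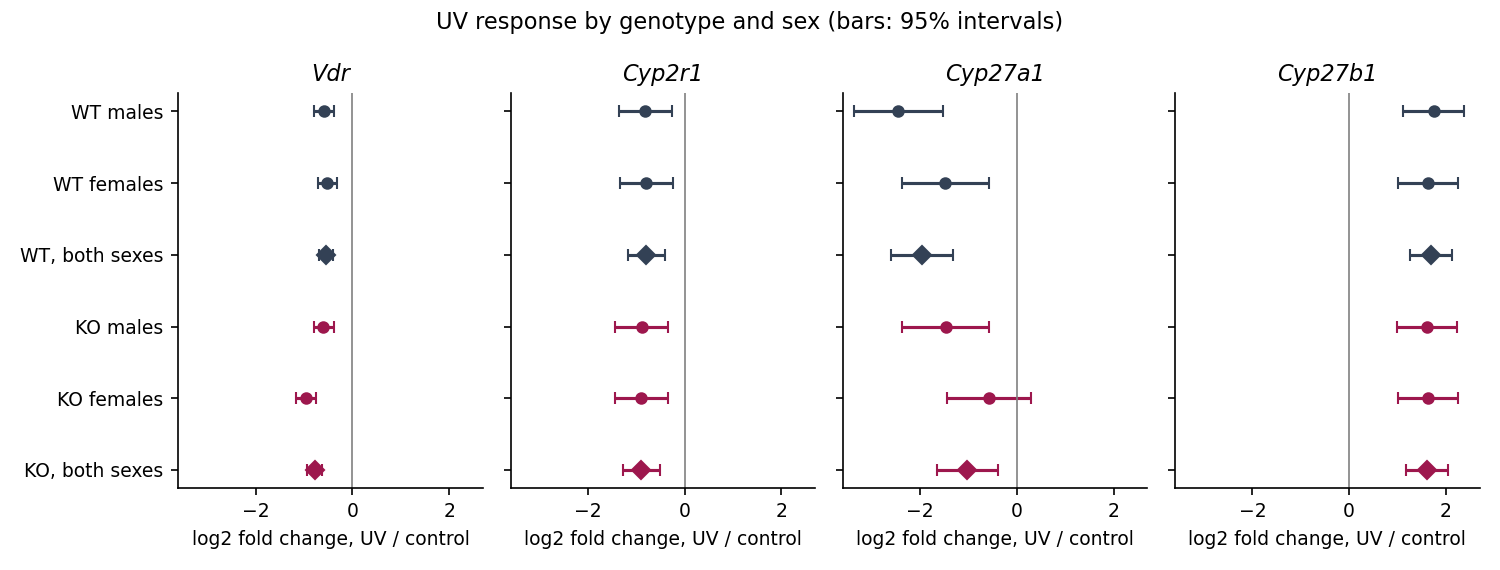
UV response of the 4 tested genes as log2 fold change of UV over control (horizontal axes), for each genotype and sex (circles) and averaged over the sexes (diamonds), with 95% intervals as bars. All intervals lie below 0 for Vdr and Cyp2r1 and above 0 for Cyp27b1, and for Cyp27a1 that of KO females, which holds mouse 54F, crosses 0 (log2 fold change -0.58, and -1.79 without that mouse).

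In each genotype and sex, 4 UV mice were set against 4 controls. Vdr was lower by a log2 fold change of -0.58 in WT males, -0.52 in WT females, -0.60 in KO males and -0.96 in KO females. After UV the KO males were at 135, 147, 138 and 119 cpm and the KO females at 113, 114, 105 and 106 cpm, which do not overlap, while the WT males were at 153, 136, 144 and 136 cpm and the WT females at 146, 163, 143 and 125 cpm, which do. Of all genes, 11.7% had no overlap between females and males among KO UV mice and 3.06% among WT UV mice. The sex difference of the response, female minus male, was -0.37 for Vdr in KO mice (95% interval -0.66 to -0.08, adjusted p = 0.397) and 0.07 in WT mice (-0.22 to 0.36, adjusted p = 1.00). Neither passed. For Cyp27a1 this difference was 0.97 in WT mice (-0.28 to 2.22, adjusted p = 1.00) and 0.89 in KO mice (-0.35 to 2.13, adjusted p = 0.707), the latter turning to -0.34 without 54F. The response of Cyp27a1 in KO females alone was -0.58 (SE 0.42, adjusted p = 0.244), and -1.79 (SE 0.30, adjusted p = 1.06e-05) without 54F. By edgeR 0% of genes passed either sex comparison of the response, with 419 genes in WT and 1482 in KO mice at an unadjusted p under 0.05, and DESeq2 called 3 and 35 genes.

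Over all states, Cyp27a1 was 1.62-fold higher in females than in males (log2 0.70, SE 0.22, adjusted p = 0.0255), a comparison in which 19.1% of genes passed. The mean was higher in females in 3 of 4 states: 7.18 ± 2.60 against 4.74 ± 0.946 cpm in KO controls, 2.41 ± 0.553 against 1.35 ± 0.433 cpm in WT UV mice and 4.78 ± 5.44 against 1.71 ± 0.449 cpm in KO UV mice (SD, n = 4 each). Without 54F the KO UV females were at 2.07 ± 0.481 cpm (SD, n = 3), a difference from the males smaller than either SD. In WT controls females were at 6.70 ± 0.633 and males at 7.37 ± 2.01 cpm. Without 54F the log2 difference was 0.40 (adjusted p = 0.0416), and limma-trend gave 0.56 (adjusted p = 0.0536). Cyp27b1 was at 0.36 (SE 0.15, adjusted p = 0.0855), Vdr at -0.07 (adjusted p = 0.362) and Cyp2r1 at -0.10 (adjusted p = 0.623), none of them called.

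The rest of the vitamin D pathway was read from a list of 46 genes, of which 35 were tested. After UV 14 were higher, 15 lower and 6 not called in WT mice, and 14 higher, 13 lower and 8 not called in KO mice. Of all genes tested, 34.5% were higher and 36.5% lower in WT mice, and 37.3% and 33.5% in KO mice. Of the higher list genes 2, Amn and Tnfsf11, passed the filter through UV mice alone. Of the other 33 list genes, 12 were higher in each genotype. The median log2 fold change of the list was -0.08 in WT and 0.00 in KO mice, beside -0.01 and 0.09 for all genes. By edgeR 0 list genes passed the test for a different response between genotypes, 7 were at an unadjusted p under 0.05, and DESeq2 called 2, Por and Sc5d. Of all 15546 genes, 119 passed that test by edgeR, 3042 were at an unadjusted p under 0.05, and DESeq2 called 792.

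Of 3 RXR genes, which encode the partners of the receptor, 2 were lower in WT mice and 1 in KO mice, where 36.5% and 33.5% of all genes were lower. Rxra, the main RXR of epidermis, went from 426 ± 18.1 to 224 ± 15.0 cpm in WT mice (SD, n = 8; log2 fold change -0.93, adjusted p = 1.38e-12) and from 437 ± 31.8 to 223 ± 31.5 cpm in KO mice (-0.97, adjusted p = 7.11e-13). Rxrb fell by 0.27 on the log2 scale in WT mice and was at -0.11 in KO mice (adjusted p = 0.169), where it passed without control 52M (-0.17, adjusted p = 0.043) or without UV mouse 74F (-0.18, adjusted p = 0.0359). Of 8 coregulator genes, 5 were lower and 1 higher in each genotype. Med1, a Mediator subunit, was at 0.11 in WT mice (adjusted p = 0.0586) and passed as higher in 20 of 39 alternatives, so that 2 were then higher. Ncoa3 and Ncoa2, p160 coactivators, had log2 fold changes of -1.15 and -1.03 in WT and -1.22 and -1.20 in KO mice. Snw1, a coactivator that is also a splicing factor, rose (0.55 in WT, 0.39 in KO mice). Hr, named here after its values were seen because the strain carries its mutation, fell from 675 ± 87.5 to 482 ± 60.9 cpm in WT mice (-0.49, adjusted p = 0.0013) and from 805 ± 124 to 462 ± 114 cpm in KO mice (-0.80, adjusted p = 2.83e-06). Reads over the whole gene do not show whether these Hr transcripts encode a working corepressor.

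Among the genes that pass electrons to cytochromes P450, 2 of 3 tested were higher in each genotype. Beside this and the next count, 34.5% of all genes were higher and 36.5% lower in WT mice, and 37.3% and 33.5% in KO mice. Por, the reductase that serves microsomal enzymes such as CYP2R1, rose from 110 ± 11.8 to 196 ± 12.7 cpm in WT mice (0.84) and by 0.59 on the log2 scale in KO mice. Fdx1, the ferredoxin that serves the mitochondrial enzymes, rose by 0.63 in WT and 0.34 in KO mice. Of 4 genes of late cholesterol synthesis around the vitamin D precursor, 3 were lower in each genotype: Ebp (-0.58 in WT, -0.73 in KO), Dhcr7, whose enzyme consumes the precursor (-0.62, -0.74), and Sc5d, whose enzyme makes it (-0.49, -0.87). Cyp3a13, the only one of 3 other vitamin D-metabolising enzyme genes to be tested, rose from 24.8 ± 4.08 to 102 ± 29.9 cpm in WT mice (2.03) and from 29.8 ± 7.16 to 106 ± 31.2 cpm in KO mice (1.83).

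Of 5 transport and uptake genes, 2 were tested, Amn and Dab2. Amn, which anchors the receptor cubilin, reached 1 cpm in 14 UV mice and 0 control mice, so that the filter admitted it only through the group where it was higher. It went from 0.123 ± 0.0949 to 1.51 ± 0.398 cpm in WT mice (log2 fold change 3.57) and from 0.167 ± 0.119 to 1.37 ± 0.422 cpm in KO mice (2.97). Dab2, an endocytic adaptor, rose from 0.379 ± 0.178 to 8.28 ± 5.18 cpm in WT mice (4.48), and by 5.05 in KO mice, or 4.28 without 54F. Gc, the serum vitamin D-binding protein gene, had at most 1 read in any mouse.

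Of 19 genes listed as vitamin D target genes, 14 were tested. Whether VDR controls each of them in mouse epidermis was not tested. In WT mice 8 were higher and 5 lower, and in KO mice 8 were higher and 4 lower. Of all genes tested, 34.5% were higher and 36.5% lower in WT mice, and 37.3% and 33.5% in KO mice. The median log2 fold change of the target genes was 0.74 in WT and 0.73 in KO mice, beside -0.01 and 0.09 for all genes. Among the higher genes Tnfsf11, the RANK ligand gene, reached 1 cpm in 5 UV mice and 0 control mice, and was admitted by the filter through UV mice alone. Without it 7 of 13 were higher in each genotype, and the median was 0.42 in WT and 0.34 in KO mice. Cdkn1a, a cell cycle inhibitor that p53 also induces, rose from 350 ± 27.2 to 1651 ± 316 cpm in WT mice (2.24) and from 343 ± 20.6 to 1722 ± 401 cpm in KO mice (2.32). Thbd, thrombomodulin, rose by 4.35 and 4.09 on the log2 scale, and Cd14, a coreceptor for bacterial lipopolysaccharide, by 4.13 and 5.04. Igfbp3, a binding protein of insulin-like growth factors, fell by 2.31 and 1.41. The targets therefore did not move together in 1 direction, and many are regulated by factors other than VDR. Slc8a1, a sodium-calcium exchanger gene, fell by 1.84 in WT mice and was at -0.37 in KO mice (adjusted p = 0.374), or -1.01 without 54F (adjusted p = 0.00229), so that 5 target genes were then lower.

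**Figure D4:**
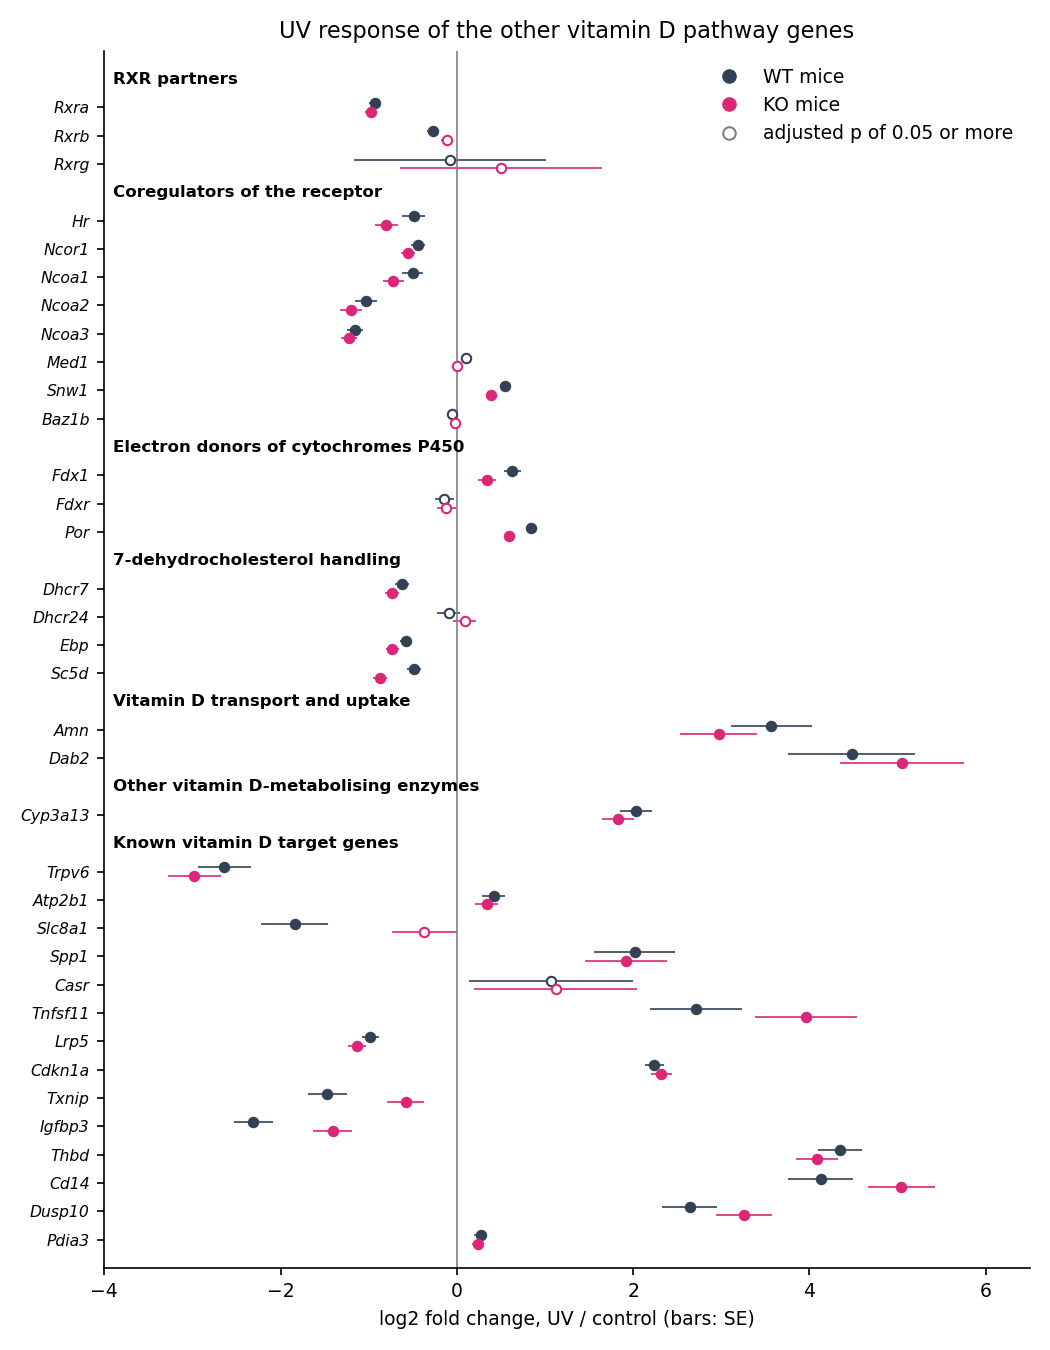
Log2 fold change of UV over control (horizontal axis) for the 35 tested genes of the other vitamin D pathway lists, in WT and KO mice, with SE as bars and open points for an adjusted p of 0.05 or more. In each genotype 5 of 8 coregulator genes and 3 of 4 sterol genes were lower. Genes listed as vitamin D targets lie on both sides, 8 of 14 higher. Of these Tnfsf11, like Amn among the transport genes, passed the filter through UV mice alone. Of all genes tested, 34.5% were higher and 36.5% lower in WT mice, and 37.3% and 33.5% in KO mice.

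Some genes varied between mice of the same group much as the members did. Pearson's r was taken over the 32 mice after the mean of each group was subtracted, and is a description, since libraries and depth are shared. For Vdr the 3 highest were Nrip3 (r = 0.79, and 0.95 without subtraction), Pde12 (0.79, -0.64) and Slc41a1 (0.75, -0.03). For Cyp2r1 they were Fam160b1 (0.74, 0.88), Fam45a (0.68, -0.58) and Aph1b (0.67, 0.87). For Cyp27b1 they were 2410006H16Rik (0.71, -0.19), Mpg (0.69, 0.91) and Slc7a6 (0.69, -0.77). For Cyp27a1 they were Cdh9 (0.84, 0.41), Kdelc2 (0.83, 0.92) and Gfra2 (0.83, 0.40), which dropped to 0.65, 0.64 and 0.65 without 54F. Cdh9 had 57 reads in 54F and at most 2 in any other mouse, and Gfra2 248 and at most 5, so both were at or near the floor in all other mice. The members themselves were little alike within groups: r was 0.20 for Vdr with Cyp2r1, 0.18 for Vdr with Cyp27a1 and 0.04 for Vdr with Cyp27b1, 0.42 for Cyp2r1 with Cyp27a1 (0.22 without 54F), -0.21 for Cyp2r1 with Cyp27b1, and -0.39 for Cyp27a1 with Cyp27b1.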

How the data were processed

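Per the labels and the methods of the study, epidermis was separated from dermis, libraries were made with a TruSeq Stranded mRNA kit, and single reads were trimmed with Cutadapt 1.8, aligned with STAR 2.5.3a and counted per gene with HTSeq 0.9.1, with GRCm38 named in the submitters' processing notes. The authors deposited raw counts per gene for each of 32 mice. Whether counting used strand is not given in the sources used here. Total rows that name no gene were left out of all library sizes and tests. Reads on no gene were 6.8% to 9.75% per mouse of the reads on genes, on no gene or ambiguous between genes. Reads that aligned to more than 1 place are not in that share. Of 55401 gene identifiers, 55141 had a symbol and position in GENCODE M21.

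Counts were fitted with edgeR 4.0.16 (R 4.3.3) as 8 group means over all 32 mice, with genes of at least 1 cpm in at least 1 mouse, TMM scaling, quasi-likelihood tests and Benjamini-Hochberg adjustment over 15546 genes at a threshold of 0.05. Levels are cpm on the TMM scale. The SE is the log2 fold change divided by the root of the F statistic, and 95% intervals use the t distribution of the fit. Alternatives were RLE scaling, DESeq2 1.42.0, limma-trend (limma 3.58.1, prior count 1, the model of the study), filterByExpr, no filter, the mice of a contrast alone, an additive sex term and each mouse left out. The fitting was tested on simulated data.

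The named genes were the members, their neighbours within 5 kb, the targeted gene, the pathway genes with the smallest p in WT mice in each list and the 3 genes most alike to each member. The members and lists were chosen with earlier results of these data known, and 1 gene of the lists is not reported here. Each library is 1 mouse, and counting error limits genes near the floor of 3 reads most. A ratio of Cyp24a1 to Cyp27b1 per mouse was left out because Cyp24a1 was at or under that floor in most mice.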

Additional observations from a re-analysis of the deposited data

Results flagged for a closer look

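Within the groups of 4, a mouse was far from the other 3 in 6 of 36 combinations of gene and group in which a mouse had more than 3 reads, by the ratio of its gap to the whole range. The usual rate of about 1 in 20 by chance assumes independent combinations. Here the same mice recur across genes and some values rest on few reads, so no excess over chance is read from this count. Mouse 54F among the KO UV females accounts for 2 of the 6 combinations: its Cyp27a1 level was 12.9 cpm against 1.52 to 2.39 (ratio 0.923), and its Cyp2r1 level 2.03 cpm against 1.01 to 1.09 (ratio 0.926). The dermal fibroblast and macrophage markers of that library are given above, and their part in these values was not tested. Among WT UV males, mouse 32M had Cyp27a1 at 2.00 cpm against 1.08 to 1.20 (ratio 0.867). For Cyp27b1, mouse 54M was at 1.14 cpm among WT control males at 0.563 to 0.656 (ratio 0.839), and mouse 67M at 0.964 cpm among KO control males at 0.531 to 0.572 (ratio 0.907). For Cyp24a1, mouse 63F was at 0.753 cpm among WT control females at 0 to 0.0741 (ratio 0.902). In 1 further combination, not counted among the 36, mouse 57F had 1 read of Cyp24a1 (0.0385 cpm) and the other WT UV females 0, and the ratio of 1.0 follows from that single read.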

How the results depend on the processing

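In the UV comparisons of WT and KO mice, all 312 values of the 4 tested genes under the alternatives, each mouse left out included, kept their direction and their side of the threshold. The counts of genes called moved more. For the different response of the genotypes, 119 genes became 792 with DESeq2 and 55 without a filter, and 56 to 346 with each mouse left out (lowest without 69M, highest without 59M). For KO against WT controls, 32 became 78 with DESeq2 and 15 with those mice alone, and 20 to 45 with each mouse left out. After UV, 514 became 1116 with DESeq2, 260 with limma-trend, 263 without a filter and 40 with those mice alone, and 133 to 983 with each mouse left out (lowest without 51F, highest without 59M, 209 without 54F). For the sex difference of the response, 0 became 3 with DESeq2 in WT mice, and 35 with DESeq2, 1 with KO mice alone and 0 to 2 with each mouse left out in KO mice. Cyp27a1 in females against males was no longer called with limma-trend (0.56). Vdr in KO against WT mice after UV passed with RLE scaling (-0.26), DESeq2 (-0.26) and filterByExpr (-0.28), and lay between -0.28 and -0.21 with each mouse left out, passing without 44F, 62F, 52M, 67M, 74F, 59M, 61F or 77F. Cyp27b1 in females against males lay between 0.30 and 0.43, and passed without 54M or 67M.

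Differences near 0 changed sign. Vdr in KO against WT controls was 0.01 with RLE scaling and with DESeq2, and -0.04 to 0.03 with each mouse left out. Cyp27b1 after UV was -0.01 with filterByExpr and without a filter, and -0.05 to 0.14 with each mouse left out. The sex difference of the Cyp2r1 response was -0.0031 with filterByExpr, -0.01 without a filter and -0.0027 with WT mice alone, and -0.15 to 0.18 with each mouse left out, in WT mice. In KO mice it was 0.02 with limma-trend and -0.32 to 0.15 with each mouse left out. That of Cyp27b1 in KO mice was -0.04 with RLE scaling, -0.02 with DESeq2, -0.09 with filterByExpr, -0.06 without a filter and -0.01 with KO mice alone, and -0.27 to 0.14 with each mouse left out; in WT mice it was -0.39 to 0.09. That of Cyp27a1 in KO mice was -0.34 to 1.19. With each mouse left out, the Cyp27b1 difference of the genotypes' responses was -0.22 to 0.03, the KO against WT difference among controls -0.03 to 0.17 for Cyp2r1 and -0.01 to 0.25 for Cyp27b1, and that after UV for Cyp2r1 -0.21 to 0.01. The causes of these changes were not tested.

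The alternatives for the pathway counts were added after the data were seen, and moved no count over the whole pathway list by over 1.5 times: in WT mice 14 to 15 genes were higher and 15 to 16 lower, in KO mice 13 to 14 higher and 12 to 14 lower. Within single lists, the coregulators higher in WT mice went from 1 to 2 in 20 of 39 alternatives through Med1 (RLE scaling, DESeq2, WT mice alone and 17 of 32 mice left out), and the RXR genes lower in KO mice from 1 to 2 through Rxrb without 52M or 74F. Without a filter on low counts Cubn, otherwise not tested, was also called lower in WT mice. No paired analysis was possible because the groups share fewer than 2 replicate numbers. Cyp24a1 and, in control mice, Cyp27b1 are limited by depth.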
